A study of Mus musculus with 14 samples.

Results

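Respiratory chain complex I genes were described across a reprogramming time course of mouse embryonic fibroblasts. The genes were all those whose array probe carried a single symbol beginning with Nduf, and where a gene had several probes, the probe with the highest mean over the 14 arrays was used. This gave 43 genes from 48 probes among 19938 genes measured. Of these, 6 encode core subunits, 9 accessory subunits of the matrix arm, 19 accessory subunits of the membrane arm, 7 assembly factors, and 2 the protein NDUFA4 and its relative. The genes Ndufb1, Ndufb4, Ndufaf8 and the 7 mitochondrially encoded subunits were not analysed here. A further 3 probes with several Nduf symbols were left out.

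The cells were mouse embryonic fibroblasts (MEFs, cultured from mouse embryos) given retroviruses for Sox2, Klf4 and Oct4 (SKO), factors that together can turn fibroblasts into pluripotent cells. Control cells received a GFP virus. Infection took 2 rounds, and both kinds of cells then grew in a medium for mouse embryonic stem cells that contains the cytokine LIF. Vitamin C was either absent or present at 50 µg/ml from day 2 onwards. RNA of SKO cells was taken on days 3, 4, 5, 6, 8 and 10 and that of GFP cells on day 3 alone, and each virus, treatment and day had 1 array. There were thus 6 SKO arrays with vitamin C, 6 without, and 1 GFP array of each kind, and no condition had a replicate. P-values therefore measure the spread of differences across the days of 1 time course, not between independent cultures. For differences between days or viruses, the arrays with and without vitamin C stand in for replicates, after their mean difference is taken out. The labels give no strain, sex or embryo for the fibroblasts, and the infected cultures are mixtures of cells at different stages.

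Complex I is the entry point of electrons from NADH into the mitochondrial respiratory chain, and it pumps protons across the inner membrane. Its core subunits hold the flavin, the iron-sulfur clusters and the proton channels, with the channels encoded in mitochondrial DNA and the rest in the nucleus. Accessory subunits surround the core and stabilise it, and assembly factors build the complex without staying in it. Fibroblasts depend strongly on respiration, whereas pluripotent stem cells lean more on glycolysis, so respiratory genes are often followed in reprogramming.

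The 14 arrays had medians between 5.19 and 5.28 on the log2 scale. As a check of the cell type, the 12 fibroblast markers had mean signals of 9.82 to 10.18 on the SKO arrays and 10.4 to 10.8 on the GFP arrays, well above the array medians. The 12 macrophage markers had mean signals of 4.26 to 5.03 on the SKO arrays of days 3 to 8, and 5.56 to 5.80 on those of day 10. SKO arrays of days 3, 5 and 10 stood apart from those of days 4, 6 and 8 across many genes. That division of days was found in these data and is not one the labels name. Because of it, differences between days are given for several pairs of days. In these bulk samples, fewer cells of a type and less RNA per cell cannot be told apart.

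Complex I transcripts went down and up together from day to day in SKO cells. Without vitamin C, the median deviation of the 43 genes from their own means ran 0.23, -0.10, 0.14, -0.14, -0.19 and 0.01 over days 3, 4, 5, 6, 8 and 10. With vitamin C it ran 0.28, -0.14, 0.13, -0.13, -0.07 and 0.22. Both arms thus moved the same way at every step except from day 6 to day 8, where only the treated arm was higher on the later day. Over all 19938 genes the corresponding medians stayed between -0.03 and 0.04 on the SKO arrays. From day 3 to day 4, the mean of the arms was lower for 36 of the 43 genes, and from day 4 to day 5 it was higher for 35. From day 5 to day 6 it was lower for 37, from day 6 to day 8 it was lower for 22 and higher for 21, and from day 8 to day 10 it was higher for 33. Of all genes, 54.3%, 45.8%, 47.8%, 49.2% and 53.5% were higher at these steps in turn. Of the 20S proteasome genes, 7.1%, 92.9%, 7.1%, 78.6% and 100.0% were.

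**Figure D1:**
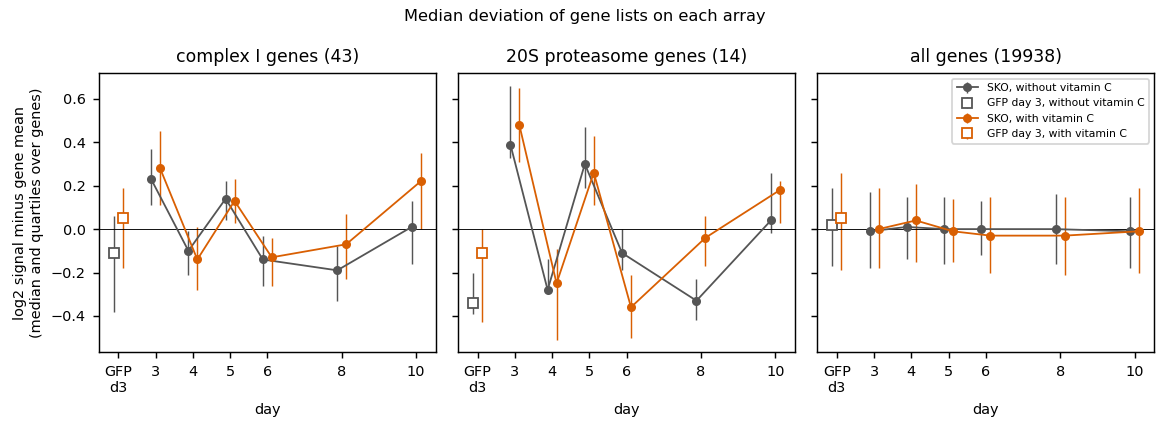
Median deviation of log2 signal from each gene's mean over 14 arrays, by day, for the 43 complex I genes, the 14 genes of the 20S proteasome and all 19938 genes; circles are SKO arrays, squares GFP arrays, and bars span the quartiles over genes. Complex I and proteasome medians are above 0 on all 4 SKO arrays of days 3 and 5 and below 0 on all 4 of days 4 and 6, while the median of all genes stays near 0.

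The day-to-day swing of each gene was expressed as the alternation over days 3 to 6. It is the mean of day 4 against its neighbours and of day 5 against its neighbours with the sign turned. A negative value means lower signals on days 4 and 6 than on days 3 and 5 in a weighted mean. Days 4 and 5 weigh more in it than days 3 and 6, so day 6 need not be low. Untreated Ndufv2, for instance, read 8.41 on day 6 and 8.21 on day 5, yet its value in that arm was -0.11. By limma's moderated test, 10 of the 43 genes (23.3%) fell in this measure at an adjusted p under 0.05, against 5.94% of all genes. None of the 43 rose, against 6.53% of all genes. An unadjusted p under 0.05, in either direction, was found for 23 of the 43 and for 5350 of all 19938 genes. This contrast follows the zigzag of days that was found in these same arrays, so its p-values and counts describe that zigzag and are no independent test of it. The value was negative for 38 of 43 genes, with a median of -0.30, against 0.02 over all genes. It was negative in each arm taken alone for 32 genes (74.4%, against 32.8% of all genes) and positive in each for 5 (11.6%, against 37.2%).

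A stricter reading gave a similar picture. For 13 of the 43 genes (30.2%), every SKO array of days 3, 5 and 10 lay above every SKO array of days 4, 6 and 8, against 3.66% of all genes. The reverse held for 0 of the 43, against 5.70% of all genes. For 9 of these 13 genes (20.9% of the 43, against 2.72% of all genes), the 6 higher SKO arrays also lay above both GFP arrays. These counts, too, describe a division of days chosen after the data had been seen.

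**Figure D2:**
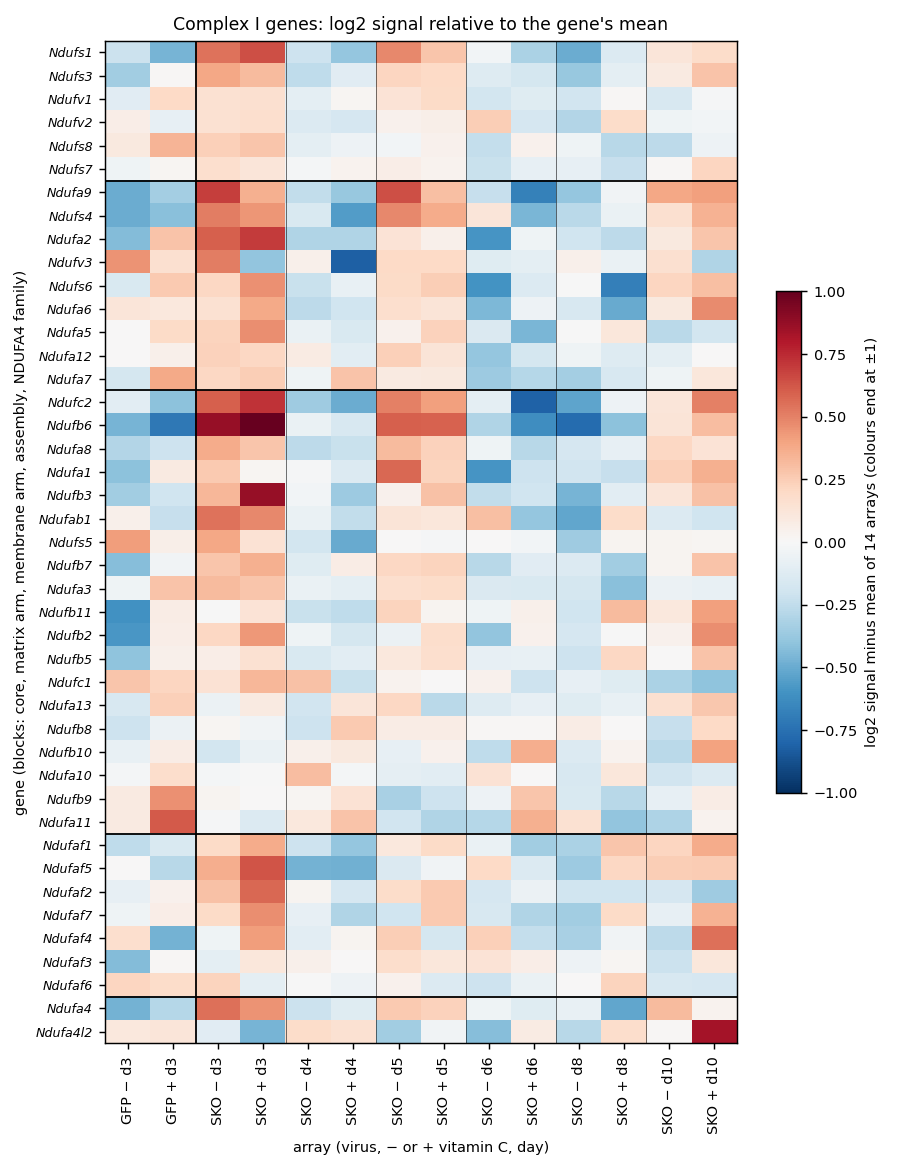
Log2 signal of the 43 complex I genes minus each gene's mean, on 14 arrays ordered by virus, day and vitamin C (− without, + with); genes are blocked by role and sorted by their alternation. Red columns on days 3, 5 and 10 alternate with blue columns on days 4, 6 and 8. This shows at the top of the core, matrix arm and membrane arm blocks. The alternation over days 3 to 6 is positive for 5 genes, among them Ndufa11 and Ndufa4l2, but no gene reverses the whole pattern of days.

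Among the core subunits, Ndufs1 and Ndufs3 passed the test and Ndufs7, Ndufs8, Ndufv1 and Ndufv2 did not. Ndufs1 encodes the large iron-sulfur subunit that carries electrons away from the flavin. Over the 6 SKO days its log2 signal was 8.58, 7.83, 8.52, 8.01, 7.54 and 8.16 without vitamin C and 8.68, 7.65, 8.31, 7.72, 7.90 and 8.22 with it, while the GFP arrays read 7.82 and 7.57. The high and low days did not overlap, and both GFP arrays fell within the range of the low days. Its alternation was -0.70 ± 0.14 (SE, adjusted p = 0.00982), a 1.62-fold swing. Ndufs3, a core subunit at the interface with the quinone site, ranged from 8.77 to 9.06 (median 8.93) on days 3, 5 and 10 and from 8.30 to 8.58 (median 8.52) on days 4, 6 and 8. Its alternation was -0.42 ± 0.12 (adjusted p = 0.0359), and its other probe gave -0.33.

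The other 4 core subunits had smaller values of the same sign. Alternation was -0.23 ± 0.11 (SE) for Ndufv1, which binds NADH and the flavin, and -0.18 ± 0.15 for its partner Ndufv2. It was -0.15 ± 0.12 for Ndufs8 and -0.11 ± 0.12 for Ndufs7, both iron-sulfur subunits on the way to quinone. Their adjusted p-values lay between 0.192 and 0.623. Signals of Ndufs7 ran from 8.49 to 8.70 on days 3, 5 and 10 and from 8.25 to 8.52 on days 4, 6 and 8, so the sets overlapped. All 6 core genes had negative values in each arm.

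Of the 9 accessory genes of the matrix arm, Ndufa9, Ndufs4 and Ndufa2 fell. Ndufa9 encodes a subunit at the junction of the arms near the quinone site. Its signals over the 6 SKO days were 8.91, 7.97, 8.86, 7.99, 7.83 and 8.60 without vitamin C and 8.57, 7.84, 8.52, 7.54, 8.18 and 8.63 with it. The 6 arrays of days 3, 5 and 10 all lay above the other 6 and above the GFP values of 7.72 and 7.88. Its alternation was -0.83 ± 0.15 (SE, adjusted p = 0.00725), or 1.78-fold.

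Ndufs4 encodes a small subunit that secures the NADH-oxidising end of the complex. Its signals ranged from 7.95 to 8.30 (median 8.20) on days 3, 5 and 10 and from 7.23 to 7.91 (median 7.58) on the other SKO days, with GFP arrays at 7.29 and 7.37. The sets did not overlap, and the alternation was -0.75 ± 0.16 (SE, adjusted p = 0.0124). Ndufa2, a subunit with a thioredoxin-like fold, read 6.89 to 7.54 on days 3, 5 and 10 and 6.25 to 6.80 on days 4, 6 and 8. Its GFP arrays differed, at 6.41 without and 7.13 with vitamin C, and its alternation was -0.54 ± 0.14 (adjusted p = 0.0247).

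The other 6 matrix arm genes had alternation values between -0.48 (Ndufv3) and -0.11 (Ndufa7) and did not pass. Ndufs6 and Ndufa6 nevertheless had signals that did not overlap between the day sets. For Ndufs6, which encodes a zinc-binding subunit, these were 9.03 to 9.29 against 8.15 to 8.83. For Ndufa6 they were 7.88 to 8.25 against 7.28 to 7.73. Both genes had a GFP array within the range of the high set, so those SKO days were not all above the control.

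Membrane arm genes included the 2 largest values. Ndufc2, a subunit at the heel of the membrane arm, had an alternation of -0.95 ± 0.19 (SE, adjusted p = 0.00995), or 1.93-fold. Untreated SKO cells read 9.59, 8.63, 9.49, 8.89, 8.46 and 9.11 in the order of days, and treated cells 9.71, 8.49, 9.40, 8.18, 8.94 and 9.49. The 2 sets did not overlap, and GFP arrays at 8.88 and 8.58 lay among the low days. Ndufb6, which lies in the far part of the membrane arm, read 9.80, 8.86, 9.53, 8.63, 8.16 and 9.06 in untreated and 9.93, 8.77, 9.52, 8.31, 8.52 and 9.24 in treated SKO cells. On the GFP arrays it read 8.46 and 8.21, below every SKO array of days 3, 5 and 10. Its alternation was -0.88 ± 0.14 (adjusted p = 0.00439), or 1.84-fold.

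Ndufa8, a subunit facing the intermembrane space, and the X-linked Ndufa1 also fell, by 0.51 ± 0.11 (SE, adjusted p = 0.0158) and 0.49 ± 0.14 (adjusted p = 0.0447). Ndufa8 ranged from 7.62 to 7.85 on the high days and from 7.20 to 7.44 on the low days, with GFP arrays at 7.19 and 7.27. Ndufa1 ranged from 6.83 to 7.38 and from 6.22 to 6.80. Ndufb3 did not pass (-0.48 ± 0.15, adjusted p = 0.061), although its sets of days, 6.14 to 6.97 and 5.63 to 6.07, did not overlap. The remaining 14 membrane arm genes did not pass. Of them, Ndufa11, Ndufb9, Ndufa10 and Ndufb10 had positive values, of 0.35, 0.28, 0.20 and 0.12.

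None of the 7 assembly factors passed, although 7 of 7 had negative values. An unadjusted p under 0.05 in limma was found for 3, where the count over all genes, given above, was also high. Ndufaf1, which builds an early membrane arm intermediate, had -0.45 ± 0.15 (SE, adjusted p = 0.0774), and its signals of 7.40 to 7.67 on days 3, 5 and 10 overlapped those of 6.91 to 7.57 on the other days. Ndufaf5, an enzyme that modifies NDUFS7, had -0.41 ± 0.15 (adjusted p = 0.105), and Ndufaf2 had -0.36 ± 0.12 (adjusted p = 0.0839). Values were -0.30 for Ndufaf7 and between -0.10 and -0.04 for Ndufaf4, Ndufaf3 and Ndufaf6. Ndufaf5 and Ndufaf6 were the weakest of the 43 in mean signal (4.40 and 4.20), where such arrays compress differences.

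The NDUFA4 pair differed in direction. NDUFA4 was long counted in complex I and is now placed in cytochrome c oxidase, and NDUFA4L2 is its hypoxia-inducible relative. Ndufa4 read 9.54, 8.78, 9.25, 8.95, 8.92 and 9.31 over the 6 days without vitamin C and 9.44, 8.87, 9.22, 8.87, 8.47 and 9.03 with it. The GFP arrays read 8.52 and 8.71, below all 6 arrays of the high days, and the alternation was -0.45 ± 0.13 (SE, adjusted p = 0.0374). Ndufa4l2 lay near the array medians, from 4.62 to 5.92, and its alternation of 0.29 ± 0.18 did not pass (adjusted p = 0.347). The difference between these 2 genes was not tested.

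**Figure D3:**
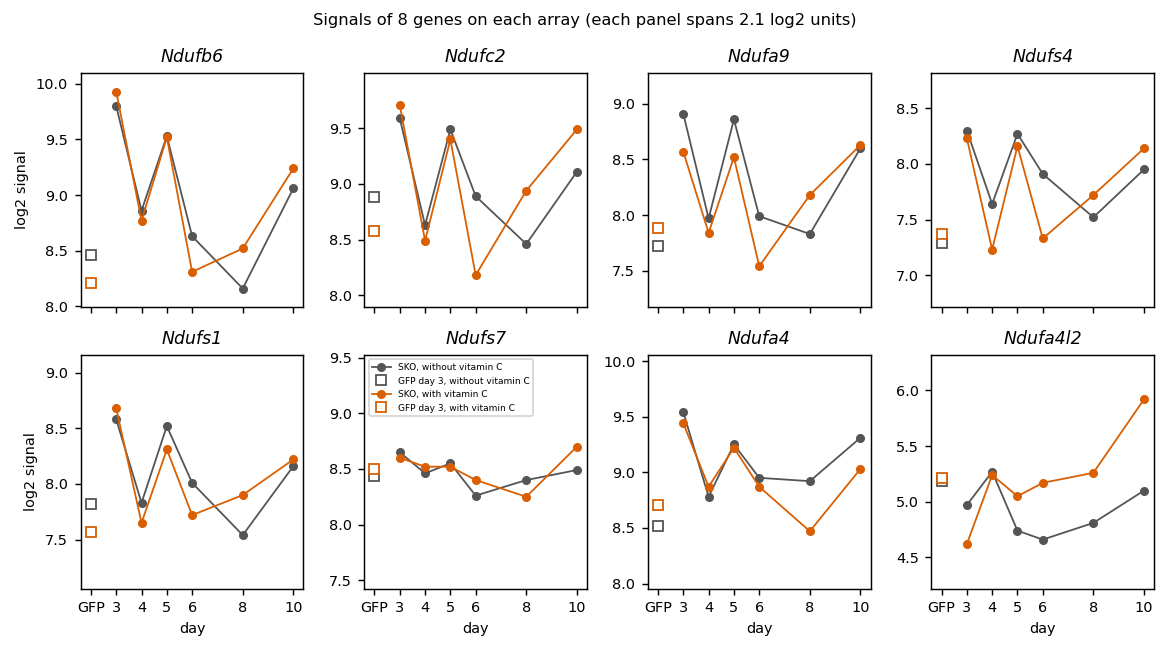
Log2 signal of 8 complex I or NDUFA4 family genes by day, without (grey) and with (orange) vitamin C, with GFP arrays of day 3 as open squares; each point is 1 array and every panel spans the same height. Ndufb6, Ndufc2, Ndufa9, Ndufs4, Ndufs1 and Ndufa4 zigzag in both arms, Ndufs7 varies little, and Ndufa4l2 reaches 5.92 with vitamin C on day 10.

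The count of 10 genes rested on few arrays. Left out in turn, the untreated day 5 array took it to 0, the treated day 4 array to 1, the treated day 5 array to 3 and the untreated day 4 array to 6, while the calls over all genes went from 1184 to 36, 107, 164 and 411. The median of the 43 genes stayed between -0.37 and -0.24 without any of these arrays. With array weights 18 of the 43 passed, while the calls over all genes went from 1184 to 1973.

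Some genes of the other respiratory complexes fell in the same measure, as did many of the proteasome, against 5.94% of all genes. In limma, 2 of 4 complex II genes fell, Sdha by 0.82 ± 0.17 (SE) and Sdhd by 0.64 ± 0.12. The same held for 1 of 9 complex III genes (Uqcrb, -0.88 ± 0.21), for 3 of 15 of complex IV (Cox7b, Cox6c and Cox7a2, from -0.58 to -0.49), and for 4 of 18 of ATP synthase, led by Atp5mpl (-1.21 ± 0.11). None of these 4 lists had a gene that rose. Of 10 complex I assembly factors of other names, Tmem126b fell (-0.74 ± 0.15). In complex III and among these assembly factors, 1 gene of 9 and 1 of 10 is near the share of all genes. Of 14 genes for the 20S proteasome, the protein-degrading core particle, 8 fell (57.1%), among them Psma1 (-0.97 ± 0.14), Psmb4 and Psma3, and their median was -0.48. No test compared these lists with each other.

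Of 11 known regulators of genes for mitochondrial proteins, 1 fell, near the 5.94% of all genes. It was Tfb2m, a mitochondrial transcription factor (-0.77 ± 0.13, SE, adjusted p = 0.00596), and the median of the list was -0.05. Nrf1, Gabpa (an ETS factor) and Yy1 did not pass.

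Promoters are shown for complex I genes because their members moved together and because matches to the sites of these regulators can be counted in them. RefSeq promoters of mouse assembly GRCm38.p6, 250 bases before to 50 after the start, were found for 38 of the 43 genes. The letters searched, on both strands, were GCGCANGCG for NRF1, CCGGAAG for ETS factors and AAGATGGC for YY1, where the ETS letters end in the AAG that opens the YY1 letters, so that both can share bases. At least 1 of them occurred in 20 of 38 promoters (52.6%), against 16.5% of all 27025 promoters and 21.2% of the 17492 of protein-coding genes. NRF1 letters occurred in 23.7% (8.83% of protein-coding promoters), YY1 letters in 18.4% (3.22%) and ETS letters in 13.2% (11.9%). Matches were found in 5 of the 8 genes that fell in the alternation and had a promoter, and in 15 of the other 30. A match is a run of letters, not a bound site. The 250 bases upstream are printed for 3 of the genes with the largest alternation that hold a match there, with the matched letters in capitals: Ndufb6 (chr4:40279422-40279671, minus strand, ETS), Ndufa8 (chr2:36049339-36049588, minus strand, NRF1, in 2 places) and Ndufaf1 (chr2:119662835-119663084, minus strand, ETS).
Ndufb6: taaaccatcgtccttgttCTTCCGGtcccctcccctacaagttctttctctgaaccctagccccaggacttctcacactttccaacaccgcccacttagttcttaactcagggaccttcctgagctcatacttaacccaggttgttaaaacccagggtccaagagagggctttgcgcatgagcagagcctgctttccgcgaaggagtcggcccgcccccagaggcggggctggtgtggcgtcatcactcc
Ndufa8: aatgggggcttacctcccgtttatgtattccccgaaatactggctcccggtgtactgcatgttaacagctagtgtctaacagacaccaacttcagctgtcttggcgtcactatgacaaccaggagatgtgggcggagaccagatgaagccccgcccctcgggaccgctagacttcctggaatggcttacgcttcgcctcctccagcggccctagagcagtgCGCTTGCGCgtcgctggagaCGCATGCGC
Ndufaf1: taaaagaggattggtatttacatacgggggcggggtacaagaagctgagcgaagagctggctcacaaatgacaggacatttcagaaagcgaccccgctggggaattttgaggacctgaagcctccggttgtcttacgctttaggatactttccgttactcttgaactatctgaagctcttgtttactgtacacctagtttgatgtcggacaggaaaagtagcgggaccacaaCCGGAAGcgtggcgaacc
Ndufb6 and Ndufa8 fell in the alternation and Ndufaf1 did not pass. Counted from the start of transcription, the ETS letters begin at -232 in Ndufb6 and at -18 in Ndufaf1, and the NRF1 letters at -29 and -9 in Ndufa8. In Ndufa9 and Ndufs4 the YY1 letters lie after the start, at 29 and 35, and are not printed.

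Days 8 and 10 do not enter the alternation and were compared after the data had been seen. Of the 43 genes, Ndufb6 rose from day 8 to day 10, by 0.81 ± 0.17 (SE, adjusted p = 0.0357), a 1.75-fold rise, against 0.802% of all genes. The median of the 43 genes was 0.27, against 0.02 over all genes, and 12 genes (3714 of all genes) had an unadjusted p under 0.05. The other 42 did not pass. Signals on day 10 were higher than on day 8 in both arms for 27 of 43 genes (62.8%, against 31.7% of all genes). Ndufb6 did not pass when any of 9 single arrays was left out. The 12 macrophage markers also lay higher on day 10 than on day 8, all 12 by sign and 4 past the threshold, and their part in the result was not tested.

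From day 3 to day 10, the ends of the course, 4 of 43 genes fell (9.3%, against 5.64% of all genes) and none rose (6.55% of all genes). An unadjusted p under 0.05 was found for 10 of the 43 and for 4920 of all 19938 genes, which is a similar share. The genes that fell were Ndufb6 (-0.72 ± 0.17, SE), the assembly factor Ndufaf2 (-0.69 ± 0.16), Ndufc1 (-0.60 ± 0.17) and Ndufa5 (-0.57 ± 0.16), with adjusted p-values of 0.0184, 0.0135, 0.0435 and 0.0412. Ndufaf2 read 6.11 and 6.39 on day 3 and 5.65 and 5.46 on day 10, so that all 4 arrays were ordered by day. Ndufc1 fell from 7.89 and 8.08 to 7.43 and 7.34, and its alternation differed in sign between its probes (-0.07 and 0.15). Ndufa5, a small subunit of the matrix arm, fell from 6.67 and 6.91 to 6.18 and 6.26. The largest rise by size, 0.71 ± 0.23 for Ndufa4l2, did not pass (adjusted p = 0.0696). The median of the 43 genes was -0.16 (-0.02 over all genes), and all 6 core genes had negative values, from -0.44 to -0.03, none past the threshold.

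The choice of the early day decided these calls. Against day 4 in place of day 3, 0 genes fell (8.11% of all genes) and 2 rose (7.85% of all genes), Ndufa9 by 0.71 and Ndufaf5 by 0.73, the median became 0.26, and Ndufb6 turned to 0.33. Fewer complex I genes fell from day 3 to day 10 when any 1 array of days 3, 5 or 10 was left out. The same was true of all genes, and the median of the complex I genes lay between -0.23 and -0.1 in these fits. The macrophage markers rose for 9 of 12 from day 3 to day 10 (Mrc1 by 2.78 ± 0.29, SE). Of the epithelial markers, Epcam rose by 2.91 ± 0.20, Cdh1 by 1.21 and Krt8 by 0.87. Krt19 went the other way (-0.565), and Krt18 and Cldn6 did not pass. The part of such shifts in the complex I values was not tested.

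Comparisons within the day sets found no complex I gene past the threshold. From day 4 to day 8, 0 of 43 passed (2.34% of all genes in either direction), 2 had an unadjusted p under 0.05, and the median was -0.05. Ndufb6 had the largest value, -0.48 ± 0.17 (SE, adjusted p = 0.202). From day 5 to day 10, 0 of 43 passed (1.73% of all genes), 3 had an unadjusted p under 0.05, and the median was -0.06. Ndufa4l2 had 0.61 ± 0.23 (adjusted p = 0.271) and Ndufaf2 -0.48 ± 0.16 (adjusted p = 0.191). The unadjusted counts were not set against those of all genes.

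SKO cells had higher complex I signals than GFP cells on day 3. In limma over all 14 arrays, 13 of 43 genes rose (30.2%, against 9.22% of all genes) and none fell (8.43% of all genes), and 16 had an unadjusted p under 0.05 (5936 of all genes). The median was 0.28, against -0.04 over all genes. Ndufb6 led with 1.53 ± 0.18 (SE, adjusted p = 9.63e-05), or 2.89-fold: its SKO arrays read 9.80 and 9.93 and its GFP arrays 8.46 and 8.21. Next were Ndufa9 (0.94 ± 0.20, adjusted p = 0.00478), Ndufs4 (0.94 ± 0.20, adjusted p = 0.0051), Ndufs1 (0.93 ± 0.18, adjusted p = 0.00265) and Ndufc2 (0.92 ± 0.24, adjusted p = 0.0155), each about 1.9-fold. For all of these the SKO arrays lay above the GFP arrays.

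By role, the risen genes were 2 of 6 core subunits (Ndufs1 and Ndufs3), 3 of 9 in the matrix arm (Ndufa9, Ndufs4 and Ndufa2) and 6 of 19 in the membrane arm (Ndufb6, Ndufc2, Ndufb3, Ndufb2, Ndufa8 and Ndufb7). They also included 1 of 7 assembly factors (Ndufaf5) and Ndufa4. Ndufb3 rose by 0.88 ± 0.19 (SE), with SKO arrays at 6.43 and 6.97 and GFP arrays at 5.75 and 5.90. Ndufa4 rose by 0.87 ± 0.17, and the other 6 rose by 0.51 (Ndufs3) to 0.72 (Ndufa2). Core genes Ndufs7, Ndufs8, Ndufv1 and Ndufv2 had values of 0.04 to 0.17 and did not pass. The lowest values were -0.42 ± 0.24 for Ndufa11 and -0.41 ± 0.23 for Ndufa4l2, neither past the threshold.

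This comparison came out differently on other SKO days. With the same GFP arrays, 0 of 43 genes rose in SKO cells of day 4 (4.88% of all genes, median -0.04), against 7 for day 5 (10.6%, median 0.17). The number was 0 for day 6 (7.30%, median -0.09), 0 for day 8 (8.17%, median -0.07) and 5 for day 10 (12.1%, median 0.17). For day 10, 5 of 43 is near the share of all genes. For days 4, 5, 6, 8 and 10, Ndufb6 had 0.48, 1.19, 0.13, 0.01 and 0.82, and Ndufa9 0.11, 0.89, -0.04, 0.21 and 0.82. The gene that fell was Ndufb9 on day 5 (-0.53 ± 0.16, SE; 10.2% of all genes fell) and Ndufc1 on day 10 (-0.61 ± 0.17; 12.2%). These comparisons share their GFP arrays, and the day 3 comparison shares its SKO arrays with the alternation, so they are not independent of each other.

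**Figure D4:**
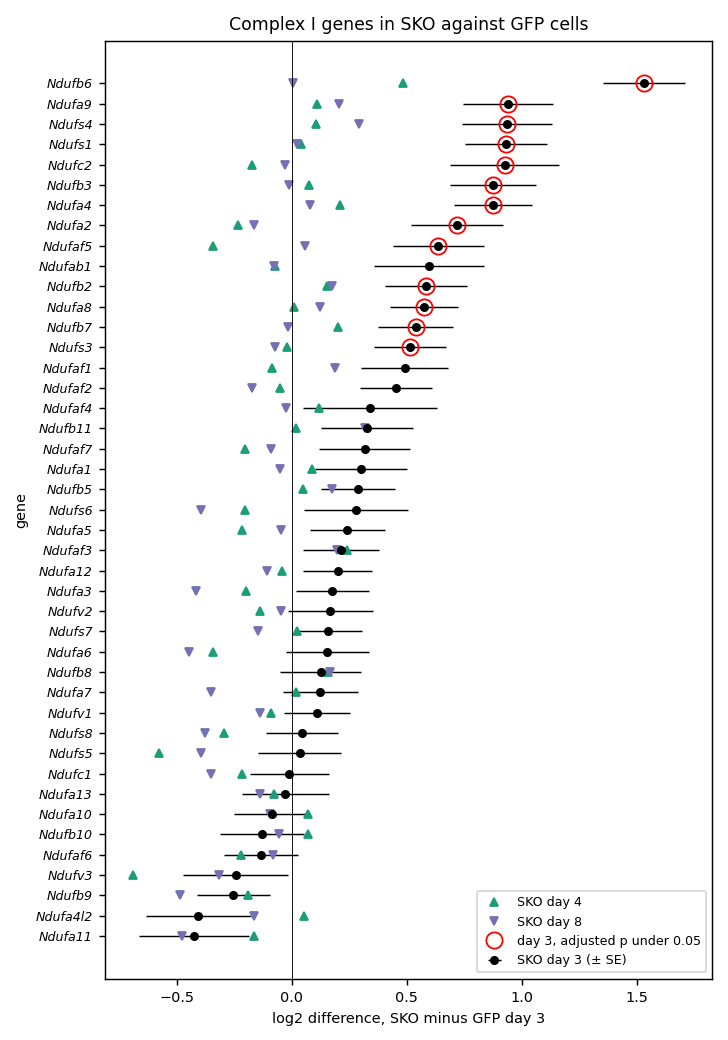
Log2 difference between SKO cells and GFP cells of day 3 for the 43 genes, with SKO day 3 as black points (bars are SE, red rings mark adjusted p under 0.05) and SKO days 4 and 8 as triangles. On day 3, 13 genes are ringed and Ndufb6 stands at 1.53, while on days 4 and 8 the same genes scatter around 0.

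Fewer complex I genes passed when either GFP array or either SKO array of day 3 was left out, as did fewer of all genes. Without the GFP array with or without vitamin C, the median of the complex I genes was 0.37 or 0.16. Without the untreated or treated SKO array of day 3 it was 0.26 or 0.22. In each of these fits the lone array was assumed to vary like the others. Fibroblast markers differed in the same comparison: 7 of 12 fell in SKO cells, Lum by 1.91 ± 0.32 (SE), with mean signals of 9.82 on both SKO arrays of day 3 against 10.4 and 10.8 on the GFP arrays. Their part in the complex I result was not tested.

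Among the other lists, 10 of 14 proteasome genes rose in SKO cells on day 3 (median 0.63, Psma1 by 1.18 ± 0.18, SE). Of all genes 9.22% rose. The respiratory chain gave 2 of 4 genes of complex II (Sdha and Sdhd), 1 of 9 of complex III (Uqcrb), 1 of 15 of complex IV (Cox7b) and 3 of 18 of ATP synthase (led by Atp5mpl, 1.15 ± 0.17), with none lower, so that complexes III and IV were near or below the share of all genes. Assembly factors of other names had 3 of 10 higher, including Acad9 and Dmac1 (0.73 ± 0.19), and 1 lower, Dmac2 (-0.72 ± 0.18).

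Vitamin C had no detectable effect on complex I genes. Averaged over 6 days, 0 of 43 genes passed in limma (0.933% of all genes). An unadjusted p under 0.05 was found for 3, a count not set against that of all genes. The median difference was 0.05, and the values ran from -0.39 for Ndufv3 to 0.29 for Ndufb10. The 95% confidence intervals of all 43 genes lay between -0.69 and 0.58, which bounds any mean change at those values on the log2 scale but does not show that there was none. The core genes had differences of -0.02 (Ndufs1) to 0.10 (Ndufv1).

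Ndufv3, an accessory subunit beside the flavin, had the lowest value, -0.39 ± 0.14 (SE, adjusted p = 0.274). With vitamin C it was lower, at -0.91 on day 3 (6.55 against 7.46) and -0.87 on day 4. On the later days the difference was 0.00, 0.02, -0.12 and -0.46. Ndufb10 was higher on all 6 days, by 0.03 to 0.67, and averaged 0.29 ± 0.11 (adjusted p = 0.305). Its mean signal of 4.62 was weak, below the array medians. Ndufa4l2 had differences of -0.34, -0.03, 0.31, 0.50, 0.45 and 0.82 from day 3 to day 10, and averaged 0.29 ± 0.13 (adjusted p = 0.45).

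With vitamin C, the 4 genes Ndufa7, Ndufb10, Ndufb5 and Ndufv1 were higher on all 6 days (9.3%, against 3.90% of all genes), and 0 were lower on all 6 (3.20%). By day, the median difference of the 43 genes was 0.04, -0.04, -0.01, 0.01, 0.16 and 0.17 from day 3 to day 10. On day 10, 34 of 43 genes were higher with vitamin C (79.1%, against 50.3% of all genes). On the GFP arrays 31 of 43 were (72.1%, against 52.0%), with a median of 0.15. On day 10 the share was 79.2% for mitochondrial and 74.6% for cytosolic ribosome genes, 73.3% for complex IV and 66.7% for ATP synthase. It was 64.3% for the proteasome, 55.6% for complex III, 50.0% for complex II and 37.5% for glycolysis. On the GFP arrays it was 100.0% for complex II, 88.9% for ATP synthase, 73.3% for complex IV and 66.7% for complex III. There it was 67.8% and 53.2% for cytosolic and mitochondrial ribosomes, 57.1% for the proteasome and 18.8% for glycolysis. All of these rest on differences between 2 arrays and have no replicate.

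**Figure D5:**
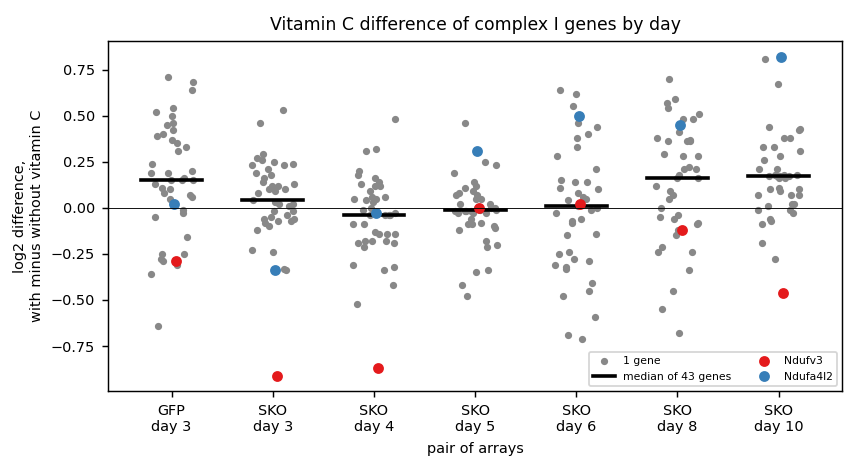
Log2 difference between the array with and the array without vitamin C for the 43 genes (points) on GFP day 3 and on 6 SKO days, with the median as a bar. Medians lie between -0.04 and 0.17; Ndufv3 (red) is at -0.91 and -0.87 on days 3 and 4, and Ndufa4l2 (blue) goes from -0.34 on day 3 to 0.82 on day 10.

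Changes of the vitamin C difference over the days were not detected. A straight line over days gave 0 of 43 genes past the threshold (0.0351% of all genes), with 1 at an unadjusted p under 0.05, Ndufa4l2, at 0.14 ± 0.04 log2 per day (SE, adjusted p = 0.32). Whether vitamin C acted differently in GFP cells gave 0 of 43 (0.00% of all genes) and 1 at an unadjusted p under 0.05, Ndufa2. With 1 GFP array of each kind, intervals of this term reached from -1.67 to 1.24. Neither unadjusted count was set against that of all genes.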

How the data were processed

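RNA of 14 cultures was labelled from 100 ng and hybridised to Affymetrix whole-transcript arrays. The log2 values were made by the authors with RMA and Partek before deposit, per the submitters' processing notes (versions and genome build not given in the sources used here). No label states the scale, and log2 was inferred from the range of the numbers. RMA compresses differences of weak genes. Arrays have no read depth, and their number limits the precision.

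Of 28853 probes, 21789 had 1 gene symbol in the platform annotation, 1621 several and 5443 none. The highest-mean probe per gene gave 19938 genes, and symbols were updated through RefSeq (19856 found). Linear models were fitted to all genes in R 4.3.3 with limma 3.58.1 with Benjamini-Hochberg adjustment and a threshold of 0.05. The 12 SKO arrays were fitted with day as a factor and vitamin C (5 residual degrees of freedom). The comparison of viruses drew on all 14 arrays (6), the vitamin C by virus term left 5 and the vitamin C by day term 4. Vitamin C arrays are paired by day in the fit. The tests were checked on simulated data with independent noise for each gene and array, which lack the shared zigzag of days seen here. That check cannot show how the p-values behave under such a zigzag.

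The members, the lists, the alternation and the division of days were chosen with earlier results of these data known. Named genes were those past the threshold (where under 6 passed, also those of largest difference, given as not passed), those of largest difference in each direction, plus the core subunits and the NDUFA4 pair. The promoters of Ndufa9 and Ndufs4 came next by that rule but hold their matches after the start, so Ndufa8 and Ndufaf1 were printed. Plots came from Python 3.11.15 with matplotlib 3.10.9.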

Additional observations from a re-analysis of the deposited data

How the results depend on the processing

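The fits were repeated after quantile or median scaling, without the 6646 genes of weakest signal (means under 4.54), with trended, robust or array-weighted variances, on gene means over probes, with other days, and without each array. Counts of 0 complex I genes for vitamin C, for day 8 against day 4, for day 10 against day 5, for vitamin C in GFP against SKO cells and for its slope over days stayed at 0 under all of those run. The 10 genes lower in the alternation became 18 with array weights and 0 to 13 without 1 array. The 4 genes lower on day 10 than on day 3 became 0 against day 4 and 0 to 5 without 1 array. The 0 higher became 1 without the weakest genes, 2 against day 4 and 0 to 1 without 1 array. The 1 gene higher on day 10 than on day 8 became 0 to 2 without 1 array. The 13 genes higher in SKO than in GFP cells became 4 to 15 without 1 array and 0, 7, 0, 0 and 5 with SKO days 4, 5, 6, 8 and 10. The 0 lower became 1 on days 5 and 10. Where leaving out 1 array markedly lowered a count, the count over all genes fell as well. With array weights, the count of all genes lower in the alternation rose too. Days 5, 6 and 10 against GFP and day 10 against day 8 were chosen after seeing the data. Ndufb6 reversed to 0.33 for day 10 against day 4. Against GFP, reversed values on SKO day 4 were Ndufa2 at -0.23, Ndufaf5 at -0.34, Ndufc2 at -0.17 and Ndufs3 at -0.02. On day 6 they were Ndufa2 at -0.25, Ndufa9 at -0.035 and Ndufc2 at -0.19, and on day 8 Ndufa2 at -0.16, Ndufb3 at -0.014, Ndufb7 at -0.016, Ndufc2 at -0.028 and Ndufs3 at -0.073. The cause was not tested. Conditions without replicates, and the weak signals of Ndufaf5, Ndufaf6 and Ndufb10, limit what can be said of small changes.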

Other observations

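A few genes of glycolysis and of mitochondrial regulation differed between the ends of the course by limma. Of all genes, 6.55% rose and 5.64% fell. From day 3 to day 10, Aldoc, the brain-type aldolase, rose by 2.38 ± 0.20 (SE, adjusted p = 2.55e-05) and Pdk1, which restrains pyruvate entry into mitochondria, by 0.61 ± 0.17, while Pgam1 fell by 0.75 ± 0.15. These were the 3 of 16 glycolysis genes past the threshold, and the 1 of 16 that fell is near the share of all genes. Aldoc also rose from day 4 to day 8, by 1.54 ± 0.20 (adjusted p = 0.00295). Ppargc1a, a coactivator of mitochondrial gene programs, rose from day 3 to day 10 by 1.36 ± 0.28 (adjusted p = 0.00724). Its relative Pprc1 fell by 0.83 ± 0.19 (adjusted p = 0.0125). The other 9 of 11 regulators did not pass, and 1 of 11 in each direction is near the share of all genes. Ppargc1a did not pass from day 4 to day 8 (0.865, adjusted p = 0.146) or from day 5 to day 10 (0.732, adjusted p = 0.264).

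Ribosomal protein genes were also among those called in the alternation, in which 5.94% of all genes fell and 6.53% rose. Of 77 genes for the mitochondrial ribosome, 15 fell and 1 rose, led by Mrps33 (-1.12 ± 0.16, SE) and Mrpl42 (-1.01 ± 0.19). Of 59 for the cytosolic ribosome, 7 fell and 2 rose, led by Rpl30 (-0.90 ± 0.14). In SKO against GFP cells on day 3, 11 of 77 and 5 of 59 rose and 1 and 0 fell, against 9.22% of all genes that rose and 8.43% that fell, with Mrpl42 at 1.44 ± 0.24. Of 16 glycolysis genes, Pfkp (1.14 ± 0.17) and Hk2 (0.96 ± 0.15) rose in SKO cells, and 2, Pdk1 (-0.69 ± 0.18) among them, fell.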
